A study of Mus musculus with 3 samples.

Results

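The genes that carry glucose and lactate across the membranes of retinal cells were examined in single-cell RNA sequencing of mouse retinas. There were 6 of them among the 18545 genes of the matrix, chosen by name: Slc2a1 and Slc2a3, which encode the glucose transporters GLUT1 and GLUT3; Slc16a1, Slc16a3 and Slc16a7, which encode the monocarboxylate transporters MCT1, MCT4 and MCT2; and Bsg, which encodes basigin. Each was followed over the cell clusters that the authors deposited and over the 3 libraries. All mice were of the C57BL/6J strain, aged 8 weeks and kept in the dark from birth, which slows the loss of photoreceptors in rd10 mice. The groups were wild-type mice of both sexes on the base chow (WT), female rd10 mice on the same base chow (rd10-vehicle) and female rd10 mice on chow with tamsulosin, metoprolol and bromocriptine (rd10-TMB). In rd10 mice a Pde6b point mutation impairs the rod phosphodiesterase, and rods die before cones. Tamsulosin blocks adrenergic alpha-1 receptors, metoprolol blocks beta-1 receptors, and bromocriptine activates D2-like dopamine receptors. Each group was sequenced as 1 library, which by the labels pooled 1 retina from each of 4 mice, although the study's text names fewer rd10 mice. No test between groups was possible with a single library each. The 95% intervals given here cover counting error only, so a difference that exceeds them describes these libraries and not the conditions.

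The photoreceptors of the mouse retina take up glucose and turn much of it into lactate, even with oxygen present. The glucose comes from the choroid through the retinal pigment epithelium and from the retinal vessels through their endothelium, and GLUT1 is the carrier at both barriers, while GLUT3 is known as the high-affinity carrier of neurons. Lactate and pyruvate leave or enter cells through the monocarboxylate transporters: MCT1 works in either direction, MCT4 is suited to export from glycolytic cells, and MCT2 has a high affinity and is found in neurons. Basigin is an immunoglobulin-like chaperone that brings MCT1 and MCT4 to the cell surface, and in photoreceptors a longer retinal form of it binds the rod-derived cone viability factor, whose cone signalling acts through GLUT1. Tags from the 3′ end of transcripts, as counted here, do not tell the forms of basigin apart.

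In all, 15242 cells carried 85078013 unique molecular identifiers (UMIs, each standing for 1 captured transcript molecule). The libraries had 4478 to 5952 cells and a median of 3509.5 to 4811.5 UMIs per cell, with WT the shallowest. At most 10 cell barcodes were shared between any pair of libraries. Clusters were named here from marker genes with the ending "-like": cluster 0 as Müller glia (12 of 12 markers), cluster 1 as rods (11 of 11), cluster 2 as rod bipolar cells (9 of 10), cluster 3 as ON cone bipolar cells (7 of 10, none among its 10 leading genes) and cluster 4 as cones (10 of 10). Cluster 11 carried 11 of 12 endothelial markers and also 10 of 10 pericyte and mural markers, so it is a vascular cluster led by endothelial genes. Cluster 10 carried 6 of 10 ON cone bipolar and 5 of 12 amacrine markers and is kept by its number, as is cluster 6. Levels are UMIs per 1000000 UMIs of a cluster in a library (CPM), and a level is given where that library held at least 20 cells of the cluster. They are shares of the RNA in the sum of a cluster's cells, so more RNA per cell and a larger share of expressing cells cannot be told apart in them.

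In the mm10 build, Slc2a1 (ENSMUSG00000028645.11) is on chromosome 4 from 119108711 to 119137983 and Slc2a3 on chromosome 6 from 122727809 to 122801640. Slc16a1 is on chromosome 3 from 104638668 to 104658462, Slc16a3 on chromosome 11 from 120948480 to 120960868, Slc16a7 on chromosome 10 from 125219270 to 125389465, and Bsg on the same chromosome from 79704491 to 79711969. All 6 are protein-coding genes of the GENCODE M21 annotation. Slc2a1 and Slc16a7 overlap antisense genes on the other strand, and for Slc16a7 this bears on a result given further on. Slc2a3 overlaps a processed pseudogene, Gm4482, on its own strand.

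Slc2a1, the gene of the barrier glucose carrier, was highest in the vascular cluster, at 1887 CPM for WT, 1563 CPM for rd10-vehicle and 1916 CPM for rd10-TMB. Of the other clusters with values in all 3 libraries, Müller glia-like cells had the highest median, with 275, 219 and 260.4 CPM in the same order. The vascular level was above the glial level in each library, and the Müller glia-like and astrocyte-like clusters overlapped (astrocyte-like cells had 373, 199 and 227 CPM). Rod-like cells followed with 53.4, 61.6 and 63.3 CPM, below both glial clusters in each library. They were also above the next cluster, by less than the counting intervals. The remaining neurons lay between 19.9 and 52.0 CPM and their ranges overlapped. In the 35 retinal pigment epithelium-like cells of rd10-vehicle, the only library with enough of them, Slc2a1 stood at 694 CPM (563 to 847), and in the 23 cells of the unnamed cluster 18 of that library at 526 CPM (450 to 611).

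Genes that mark endothelium did not all stand alike outside the vessels. Cldn5 and Cdh5, endothelial junction genes, had 2892 and 410 CPM in the vascular cluster of WT, and 0.602 and 0 CPM in Müller glia-like cells. Cldn5 in Müller glia-like cells was therefore at 0.0208, 0.0555 and 0.0649% of its vascular level, while Slc2a1 was at 14.6, 14.0 and 13.6%. In rod-like cells Cldn5 was at 0.0275 to 0.0577% of its vascular level and Slc2a1 at 2.83 to 3.94%. Both clusters thus held more Slc2a1 than Cldn5 relative to the vessels in each library. Kdr and Flt1, receptors of vascular endothelial growth factor, ran the other way: in Müller glia-like cells Kdr was at 325, 395 and 424% of its vascular level and Flt1 at 25.8, 17.6 and 18.3%. These 2 made up most of the sum of the 12 endothelial markers there, which was 1581, 1554 and 1508 CPM. The part of vascular RNA in the glial Slc2a1 was not tested.

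**Figure D1:**
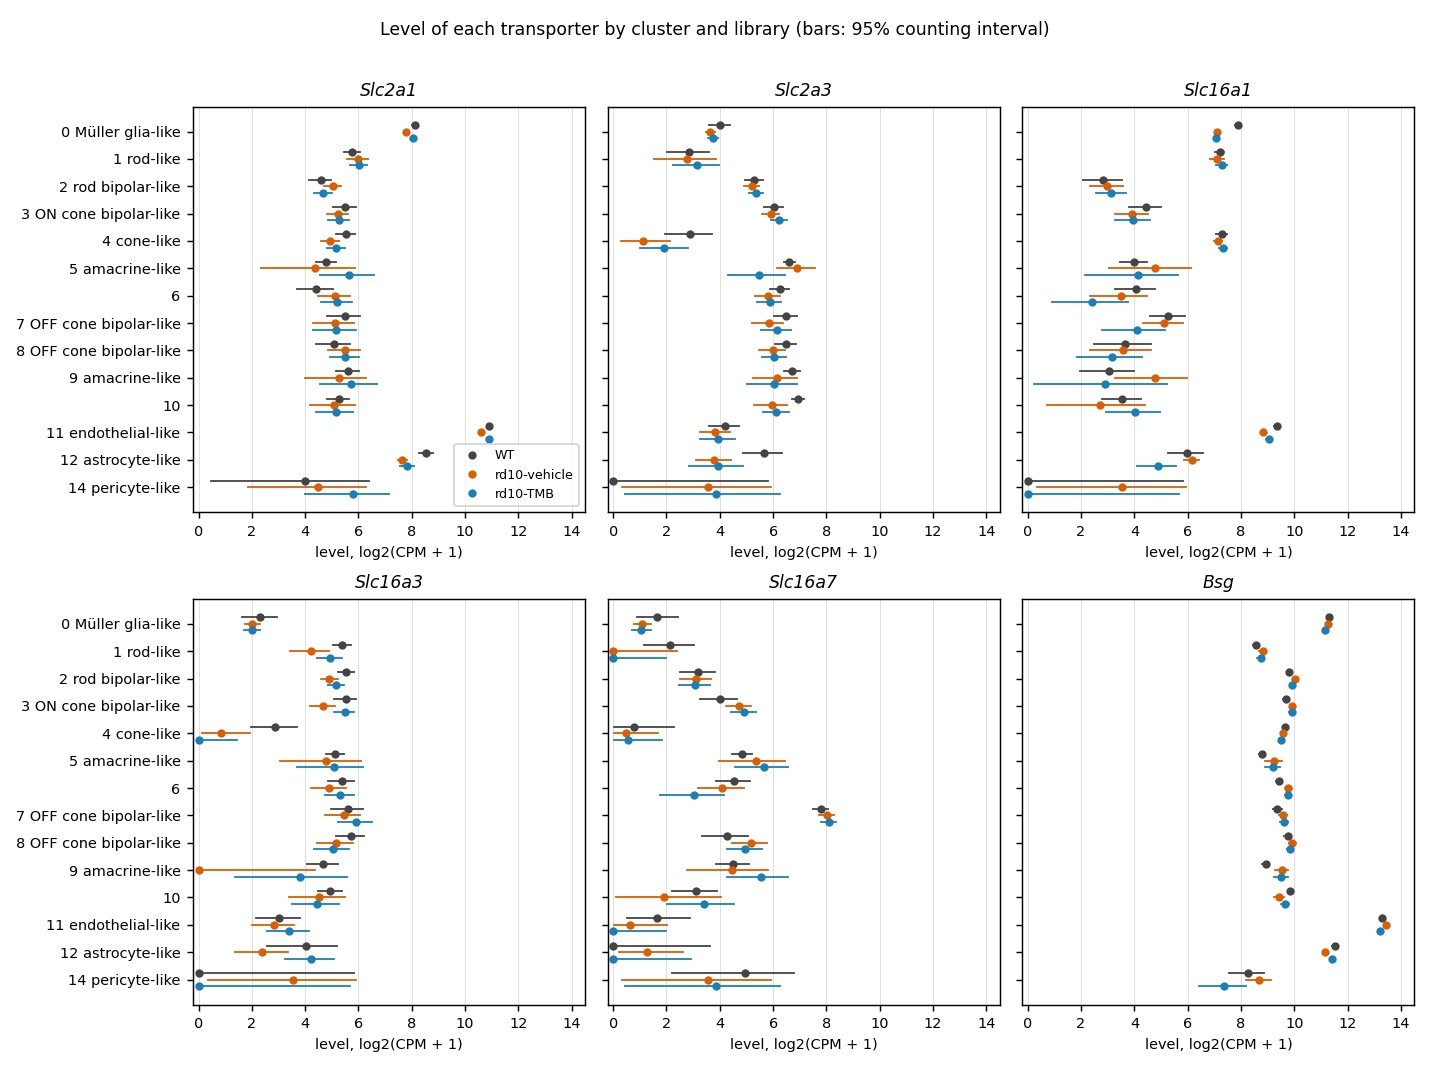
Level of each transporter gene, as log2(CPM + 1) on the horizontal axis, in the 14 clusters with at least 20 cells in each library. Points are single libraries (grey WT, orange rd10-vehicle, blue rd10-TMB) and bars are 95% counting intervals; Slc2a1, Slc16a1 and Bsg peak in cluster 11, Slc16a7 in cluster 7, and Slc2a3 and Slc16a3 are spread over bipolar and amacrine clusters.

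Slc2a3, the neuronal glucose carrier gene, was highest in neuronal clusters. The amacrine-like cluster 5 had 96.5, 119 and 43.9 CPM, the last from 8 UMIs in rd10-TMB. The bipolar clusters 3, 7 and 8, the amacrine-like cluster 9 and clusters 6 and 10 had 55.3 to 121 CPM, and their ranges over the libraries overlapped each other and that of cluster 5. Rod bipolar-like cells had 38.2, 35.6 and 40.4 CPM, below each of those clusters in each library and above glia and vessels, apart from an astrocyte-like level of 49.4 CPM in WT. Müller glia-like cells had 15.1, 11.5 and 12.5 CPM. Photoreceptors were the lowest neurons, with 6.12, 5.81 and 7.91 CPM in rod-like cells and 6.32, 1.17 and 2.76 CPM in cone-like cells. The rod and cone values rest on 3 to 11 UMIs a library.

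Slc16a1 (MCT1) was highest in the vascular cluster, with 645, 455 and 527 CPM in WT, rd10-vehicle and rd10-TMB. The next tier was made of cones, rods and Müller glia. Cone-like cells had 154, 139 and 158 CPM, rod-like cells 146, 137 and 154 CPM, and Müller glia-like cells 236, 137 and 131 CPM. These ranges overlapped, so the order of the 3 classes was not fixed by the data. Inner neurons were far lower: rod bipolar-like cells had 6.11, 6.88 and 7.78 CPM, and ON cone bipolar-like cells 20.5, 14.0 and 14.6 CPM. Retinal pigment epithelium-like cells of rd10-vehicle had 430 CPM (328 to 553).

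Slc16a3 (MCT4) was found mainly in bipolar-like, amacrine-like and rod-like clusters, at low counts. The OFF cone bipolar-like cluster 7 had 47.7, 42.5 and 58.7 CPM, ON cone bipolar-like cells 44.7, 24.5 and 43.7 CPM, and rod bipolar-like cells 45.3, 29.1 and 34.8 CPM. Rod-like cells had 41.2, 17.4 and 29.3 CPM. Many of these ranges overlapped. In the order of the medians, cluster 10 was the first whose range over the libraries lay wholly above that of the next cluster. Cone-like cells had 6.32 CPM in WT from 9 UMIs, 0.78 CPM in rd10-vehicle from 2 UMIs, and no UMI in rd10-TMB, where 3 counts would be 1.38 CPM. Müller glia-like cells had 3.92, 3.06 and 3.04 CPM. Both photoreceptor types thus shared Slc16a1 but differed in Slc16a3, with the rod-like level above the cone-like level in each library.

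The gene whose level followed Slc16a3 most closely was Hif1a, which encodes the oxygen-regulated subunit of hypoxia-inducible factor (Pearson r of 0.893 over 30 points, the 10 clusters with at least 50 cells in each of 3 libraries). ACGTG, read as CACGT on the other strand, is a form of the core of the DNA element bound by this factor. The 250 bases before the start sites that RefSeq gives for the transporter genes were searched for that form alone, on both strands. Such a sequence was at hand for 3 of the 6 genes (build GRCm38.p6, all on the plus strand, 5′ to 3′, matches in capitals).
Slc16a3, chr11:120948817-120949066: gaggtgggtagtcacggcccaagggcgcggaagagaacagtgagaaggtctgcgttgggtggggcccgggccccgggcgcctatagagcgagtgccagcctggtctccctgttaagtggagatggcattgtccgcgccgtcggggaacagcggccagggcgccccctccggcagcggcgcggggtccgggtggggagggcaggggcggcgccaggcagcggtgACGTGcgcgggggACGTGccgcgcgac
Slc2a1, chr4:119108495-119108744: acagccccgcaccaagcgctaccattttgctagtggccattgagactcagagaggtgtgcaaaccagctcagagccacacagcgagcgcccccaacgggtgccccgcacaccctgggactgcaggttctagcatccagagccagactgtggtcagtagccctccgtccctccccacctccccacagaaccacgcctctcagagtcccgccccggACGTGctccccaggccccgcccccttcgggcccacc
Slc16a1, chr3:104638414-104638663: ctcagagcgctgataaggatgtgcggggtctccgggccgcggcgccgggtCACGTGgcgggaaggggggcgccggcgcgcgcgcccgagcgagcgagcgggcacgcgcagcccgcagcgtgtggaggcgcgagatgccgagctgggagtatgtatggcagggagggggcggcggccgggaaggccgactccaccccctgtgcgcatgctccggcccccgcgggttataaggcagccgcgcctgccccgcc
The Slc16a3 window held 2 separate matches, and those of Slc2a1 and Slc16a1 held 1 each. The match in Slc16a1 lies in CACGTG, where the matches of both strands overlap and were counted once. Of 32851 windows of the same length in the RefSeq table, 16.6% held a match and 1.93% held at least 2. A match is a run of letters and not a bound site. RefSeq and GENCODE place some starts differently. The Slc16a3 window lies inside the gene as placed above (start 120948480). The Slc2a1 window runs past the start given there (119108711).

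Slc16a7 (MCT2) was concentrated in a single cluster. The OFF cone bipolar-like cluster 7, led by Grik1 and Otor, had 220.4 CPM for WT (181 to 265), 257 CPM for rd10-vehicle (213 to 309) and 270 CPM for rd10-TMB (219.5 to 328). The next cluster, amacrine-like cluster 5, had 27.6, 39.7 and 49.4 CPM, so cluster 7 was above it in each library. The other OFF cone bipolar-like cluster, cluster 8, had 18.1, 34.7 and 30.1 CPM. Cluster 7 held 37.8% of all Slc16a7 UMIs of the WT library, 46.2% of those of rd10-vehicle and 43.0% of those of rd10-TMB, although it made up only 143, 178 and 128 cells. Müller glia-like, rod-like and cone-like cells had 0 to 3.34 CPM.

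Gm45604, an antisense gene on the strand opposite to Slc16a7, overlaps it and had its highest level in the same cluster among those examined. In cluster 7 it had 155, 275 and 275 CPM in WT, rd10-vehicle and rd10-TMB, and in the 6 main clusters 0 to 4.60 CPM. Of the 143 cells of cluster 7 in WT, 66 had a Slc16a7 UMI, 51 a Gm45604 UMI and 28 had both. In rd10-vehicle these were 76, 76 and 38 of 178 cells, and in rd10-TMB 61, 61 and 35 of 128 cells. The study's methods state that counts were made with Cell Ranger at its default parameters, and they describe no strand setting. How well reads of Slc16a7 and Gm45604 were separated was not tested. The level of Slc16a7 in cluster 7 is uncertain to that extent.

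Bsg was the most evenly present of the 6 genes. The vascular cluster had 9851, 10929.6 and 9385 CPM, several-fold above the astrocyte-like (2910.05, 2264 and 2686 CPM) and Müller glia-like cells (2513, 2451 and 2267 CPM), which overlapped. The retinal pigment epithelium-like cells of rd10-vehicle stood between them and the vessels, at 4797 CPM (4441 to 5174). All neuronal clusters had 375 to 1038 CPM, and rod-like cells were the lowest of them by their median, with 375, 446 and 423 CPM. Pericyte-like cells of cluster 14, which share markers with cluster 11, had 302, 406 and 164 CPM. Cells of cluster 11 with more endothelial than pericyte marker UMIs (105, 132 and 76 cells) had 10954, 11227 and 10124 CPM of Bsg, and the other cells of that cluster 5322, 8794 and 5992 CPM. The same split gave 2066, 1611 and 2037 CPM against 1149, 1215 and 1360.1 CPM for Slc2a1, and 762, 477 and 589 CPM against 168, 299 and 244 CPM for Slc16a1. Each of these genes was higher in the cells with more endothelial RNA in each library.

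Across the 30 cluster and library points, Slc2a1 moved with Bsg (Pearson r of 0.921) and with Slc16a1 (0.790), and Slc2a3 moved with Slc16a3 (0.756) and against Slc16a1 (-0.802). The value for Slc2a1 and Slc2a3 was -0.41. These values describe differences between cell types, and the points share libraries and depths. Besides Hif1a, the genes closest to Slc16a3 were Mmd (0.890), R3hdm2 (0.882), Pou6f1 (0.877) and Cplane1 (0.871). The 5 closest to Slc2a1 were Rbpms (0.986), Fcgrt (0.985), Itpr2 (0.984), Anxa11 (0.984) and Rgcc (0.982), and the 5 closest to Bsg were Serpinb6a (0.977), Rhob (0.969), Cast (0.965), Myl12a (0.962) and Ano6 (0.961). For Slc2a3 they were Nsg1 (0.958), Chn1 (0.952), Gm42372 (0.947), Lonrf2 (0.947) and Bnip3 (0.945). For Slc16a1 they were Ier3 (0.954), Itprid2 (0.949), Svil (0.947) and Rreb1 (0.945), and for Slc16a7 Lrrtm3 (0.951), Otor (0.940), Kcnip4 (0.936), Kcna6 (0.880) and Nnat (0.878). Candidates were the 9259 genes with at least 1000 UMIs.

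The share of cells with a UMI was compared at a common depth, after each cell was thinned to 1000 UMIs. Slc2a1 was then seen in 26.6% of the WT Müller glia-like cells (exact binomial interval 22.8 to 30.6%), in 20.3% of those of rd10-vehicle (18.7 to 21.9%) and in 23.0% of those of rd10-TMB (21.0 to 25.0%). Without thinning these shares were 75.7, 79.1 and 84.4%, at median depths of 6300, 8593.5 and 9454.5 UMIs. In the same cells Slc16a1 was seen in 21.1% (17.7 to 24.8%), 13.4% (12.1 to 14.8%) and 11.9% (10.4 to 13.6%), and unthinned in 66.4, 62.3 and 62.4%. The WT share of Slc16a1 lay above both rd10 shares, whose intervals overlapped. Rod bipolar-like cells, in which Slc16a1 was near its lowest, gave 1.25, 0.553 and 0.315%, at median depths of 5032, 3638 and 4310 UMIs. Rod-like cells gave 13.9, 13.1 and 14.1% and cone-like cells 13.2, 14.1 and 15.1%, so both photoreceptor types stood above that level and their intervals overlapped between libraries.

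In the vascular cluster, thinned shares of cells with Slc2a1 were 56.3, 76.3 and 73.0%, an order that goes against the CPM, so none is read from it. Bsg was seen in 84.9 to 87.8% of Müller glia-like cells and 28.7 to 31.6% of rod-like cells over the libraries. Slc16a7 was seen in 18.4, 23.2 and 24.4% of the cells of cluster 7 and in at most 0.190% of Müller glia-like cells.

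**Figure D2:**
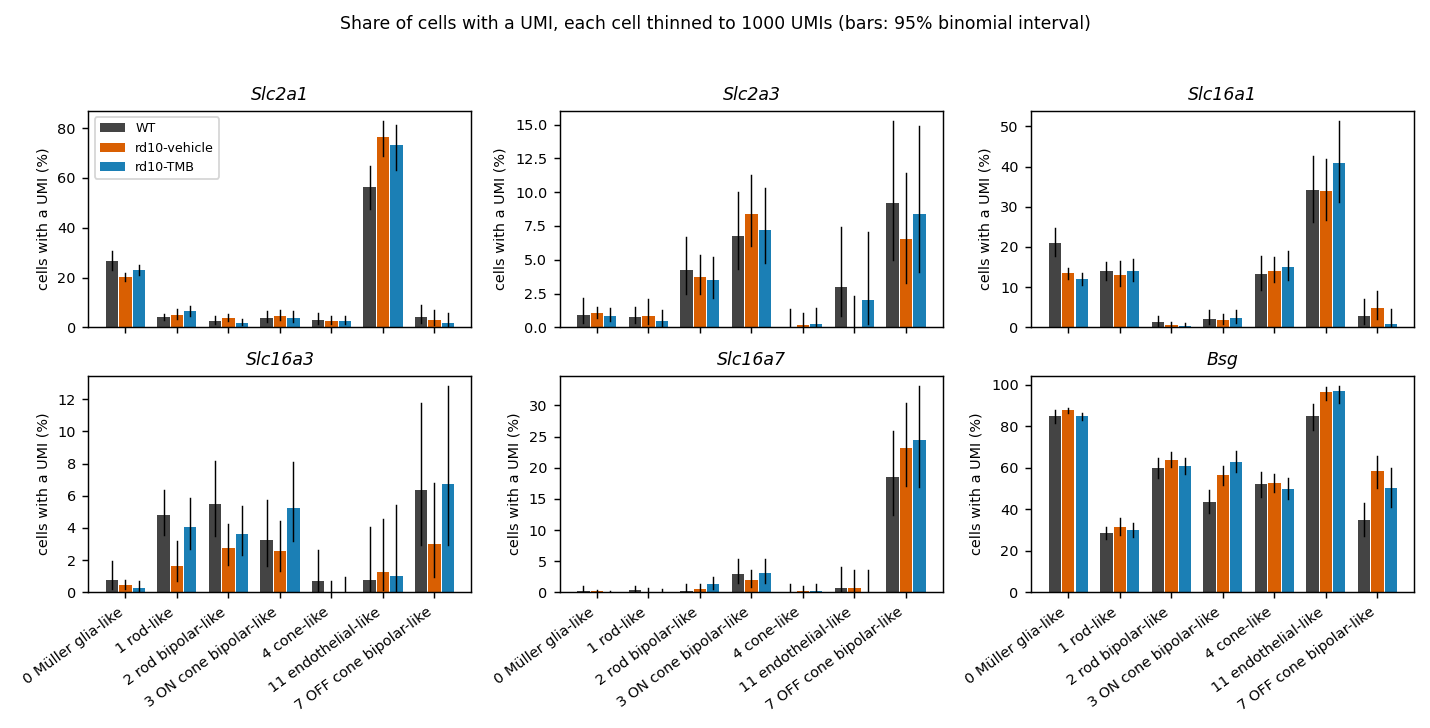
Percent of cells with at least 1 UMI of each gene, after thinning each cell to 1000 UMIs, in the 6 main clusters and in cluster 7, on a vertical axis that starts at 0 and is scaled for each gene. Bars are single libraries (grey WT, orange rd10-vehicle, blue rd10-TMB) with exact 95% binomial intervals; for Slc16a1 in Müller glia-like cells the WT bar (21.1%) stands above both rd10 bars (13.4 and 11.9%).

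The 3 libraries were then compared within the 6 main clusters. A gene entered where both libraries together held at least 50 UMIs of it, and it was called where its CPM differed by 1.5-fold or more with an interval that left out no change. Slc2a1 and Bsg entered in all 6 clusters, Slc16a1 in 4, Slc16a3 in 4, Slc2a3 in 3 and Slc16a7 in 1, which made 24 of 36 gene and cluster pairs in each comparison. For rd10-vehicle over WT, 0 pairs were called higher and 5 lower, against 10.5% of all genes and clusters that entered. For rd10-TMB over WT, 1 was called higher and 1 lower, against 9.39%. For rd10-TMB over rd10-vehicle, 1 was called higher and 0 lower, against 3.15%. The median log2 ratio of the pairs was -0.13, -0.05 and 0.14 in the 3 comparisons, while the medians of all genes in these clusters lay between -0.08 and 0.02. The WT library is part of 2 of the comparisons and each rd10 library of 2, so they are not independent.

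**Figure D3:**
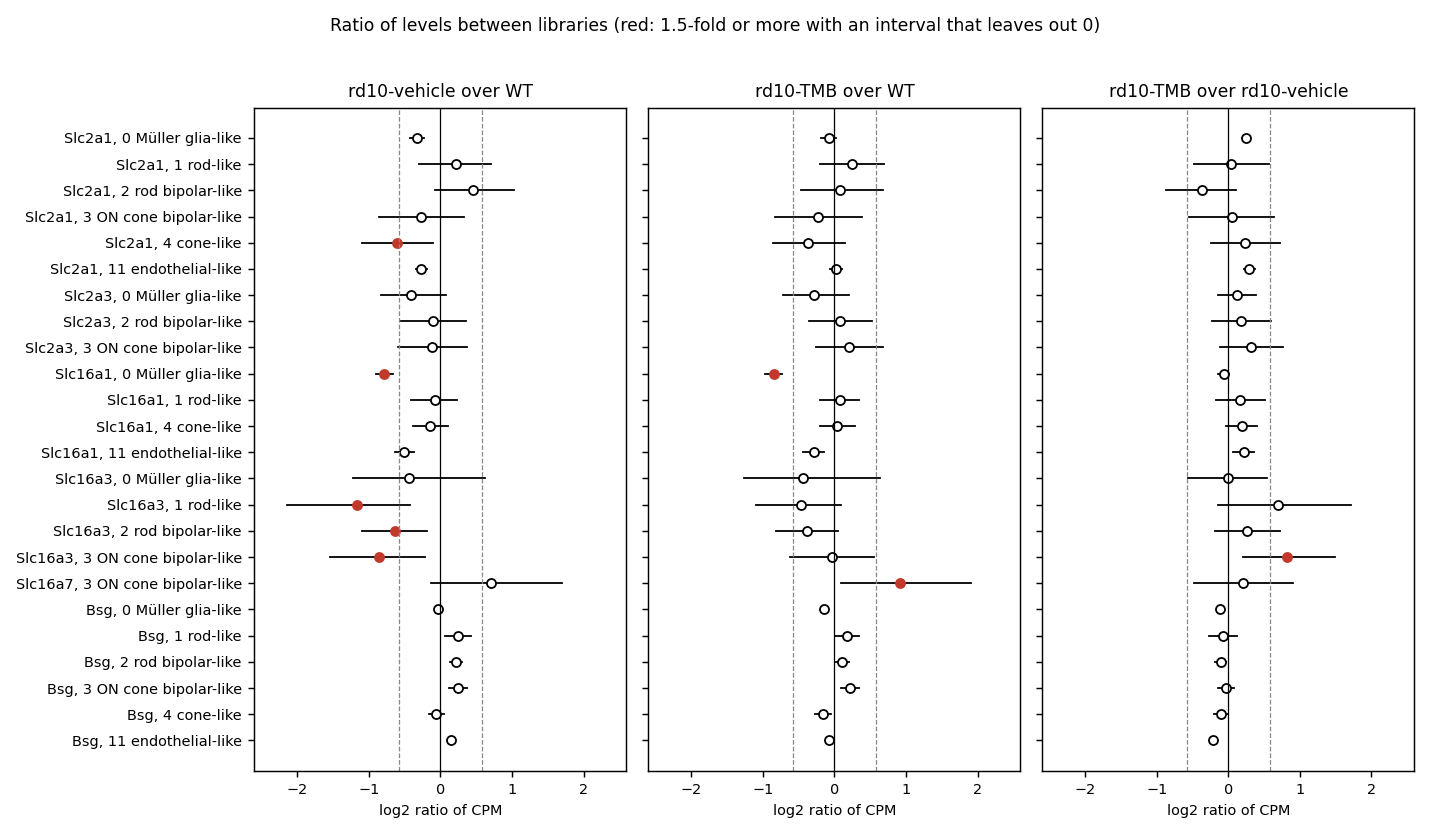
Log2 ratio of CPM between libraries (horizontal axis) for each transporter gene and main cluster that held enough UMIs. Points carry exact 95% counting intervals, dashed lines mark 1.5-fold, and the 8 filled red points are the called pairs, of which 2 are Slc16a1 in Müller glia-like cells.

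In Müller glia-like cells Slc16a1 fell in both rd10 libraries. It was at 236 CPM for WT (219 to 253), 137 CPM for rd10-vehicle (132 to 142) and 131 CPM for rd10-TMB (125 to 136). The WT level lay above both rd10 levels, and the rd10 intervals overlapped. The log2 ratio was -0.78 for rd10-vehicle over WT (-0.89 to -0.67) and -0.85 for rd10-TMB over WT (-0.97 to -0.73). For rd10-TMB over rd10-vehicle it was -0.07 (-0.15 to 0.01), and -0.11 with each cell weighed the same (-0.19 to -0.03, the summed-count interval moved to that ratio). This was 1 called of 5 transporter genes that entered, against 14.3% of all genes in this cluster for rd10-vehicle over WT and 12.1% for rd10-TMB over WT. None of the 5 was called for rd10-TMB over rd10-vehicle, where 2.66% of all genes were. The rod-like level of Slc16a1 (146 CPM in WT) was below the WT glial level.

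Slc2a1 in the same cells had a different order. It was 275 CPM for WT (257 to 293), 219 CPM for rd10-vehicle (213 to 225) and 260.4 CPM for rd10-TMB (253 to 268). The rd10-vehicle library was the low one, and the intervals of WT and rd10-TMB overlapped. The log2 ratio was -0.33 for rd10-vehicle over WT (-0.43 to -0.22), 0.25 for rd10-TMB over rd10-vehicle (0.19 to 0.31) and -0.08 for rd10-TMB over WT (-0.18 to 0.03). All 3 are under 1.5-fold. Bsg differed less, with -0.04 for rd10-vehicle over WT (-0.07 to -0.00), -0.15 for rd10-TMB over WT (-0.18 to -0.11) and -0.11 for rd10-TMB over rd10-vehicle (-0.13 to -0.09). The direction of the first of these turned with size factors from the median of ratios (0.02), with each cell weighed the same (0.01), after thinning (0.04) and in cells without Lcn2 (0.04, interval 0.00 to 0.07). Slc2a3 and Slc16a3 gave intervals that held 0 in each comparison, and Slc16a7, with 7, 25 and 18 UMIs, did not enter.

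Lcn2 marks reactive glia, and a UMI of it was in 9, 653 and 300 of the Müller glia-like cells of WT, rd10-vehicle and rd10-TMB. In both rd10 libraries these cells had less Slc16a1 than the others. In rd10-vehicle Slc16a1 was 83.3 CPM (76.9 to 90.1) in cells with Lcn2 and 164 CPM (158 to 171) in cells without it, and in rd10-TMB 70.6 CPM (62.7 to 79.3) and 150 CPM (143 to 157). The log2 ratio of cells with over cells without Lcn2 was -0.98 (-1.11 to -0.85) and -1.08 (-1.27 to -0.91). In WT, cells without Lcn2 had 242 CPM of Slc16a1, so the cells without Lcn2 were also lower in rd10. Among cells without Lcn2, the log2 ratio was -0.56 for rd10-vehicle over WT (-0.68 to -0.44), just under 1.5-fold, and -0.69 for rd10-TMB over WT (-0.81 to -0.57). For rd10-TMB over rd10-vehicle it was -0.13 (-0.22 to -0.04), below 1.5-fold with an interval that left out 0. The split was chosen after the data were seen, and cells with Lcn2 were also deeper (medians of 10153 and 11722 UMIs against 8175 and 9064.5). Slc2a1 and Bsg were lower in cells with Lcn2 as well, by smaller amounts: the log2 ratio was -0.25 in both rd10 libraries for Slc2a1, and -0.28 and -0.32 for Bsg. For Slc2a3 it was 0.61 (0.24 to 0.97) in the vehicle library and -0.13 (-0.65 to 0.33) in the TMB library.

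**Figure D4:**
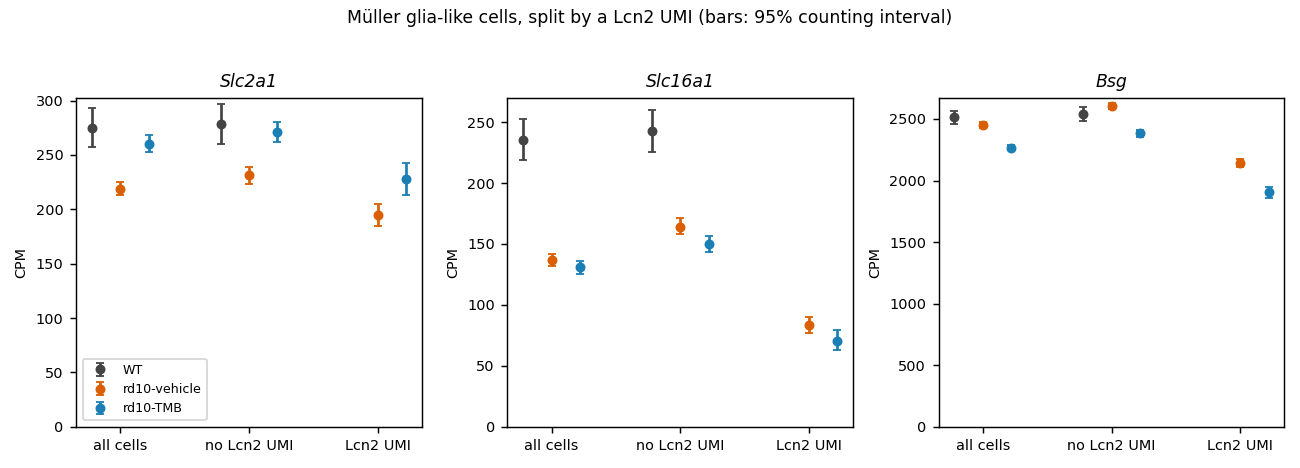
CPM of Slc2a1, Slc16a1 and Bsg in all Müller glia-like cells and in those without or with a Lcn2 UMI, by library (grey WT, orange rd10-vehicle, blue rd10-TMB), with 95% counting intervals and axes from 0. WT is not drawn for cells with Lcn2, since it held 9 of them; Slc16a1 is highest in WT (236 CPM in all cells) and lowest in rd10 cells with Lcn2 (83.3 and 70.6 CPM).

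In the vascular cluster no transporter gene was called in any comparison, against 16% of all genes for rd10-vehicle over WT, 15.6% for rd10-TMB over WT and 4.28% for rd10-TMB over rd10-vehicle. Slc2a1, Slc16a1 and Bsg were the only members with enough UMIs. The log2 ratio of rd10-TMB over rd10-vehicle was 0.29 for Slc2a1 (0.21 to 0.37), 0.21 for Slc16a1 (0.06 to 0.36) and -0.22 for Bsg (-0.25 to -0.19). By CPM, Slc2a1 was thus the higher with TMB of the rd10 libraries in both vessels and Müller glia-like cells, below 1.5-fold in each. The thinned shares of the vascular cluster did not have this order. They were 76.3% (68.8 to 82.7%) in rd10-vehicle and 73.0% (63.2 to 81.4%) in rd10-TMB. For rd10-vehicle over WT the values were -0.27 for Slc2a1 (-0.35 to -0.19), -0.50 for Slc16a1 (-0.64 to -0.37) and 0.15 for Bsg (0.12 to 0.18). The comparison with WT depended on how cells were weighted: with each cell given equal weight, the same ratios were -0.04, 0.07 and 0.42. With Xist-bearing WT cells they were -0.34, -0.80 and -0.08, and with at most 10% mitochondrial UMIs per cell -0.49, -0.71 and -0.05, so the direction of Bsg turned. The pericyte and mural markers of this cluster summed to 5011, 7582 and 7723 CPM, and the endothelial markers to 12147, 14680 and 13752 CPM. Red blood cell markers summed to 777, 3340 and 2820 CPM, ON cone bipolar markers to 1116, 337 and 347 CPM and rod bipolar markers to 674, 134 and 153 CPM, and Cldn5 was in 66.4, 95.5 and 92% of the unthinned cells. The part of these differences in the ratios was not tested. In the cells with more endothelial than pericyte marker UMIs, Slc16a1 was -0.68 for rd10-vehicle over WT (-0.82 to -0.53), past 1.5-fold, and Slc2a1 was 0.34 for rd10-TMB over rd10-vehicle.

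In photoreceptors the counting intervals of the Slc16a1 ratios held 0. In rod-like cells the log2 ratio was -0.08 for rd10-vehicle over WT (-0.41 to 0.23), 0.08 for rd10-TMB over WT (-0.20 to 0.35) and 0.16 for rd10-TMB over rd10-vehicle (-0.17 to 0.51). In cone-like cells it was -0.15 (-0.39 to 0.11), 0.04 (-0.21 to 0.29) and 0.19 (-0.03 to 0.40). With cells of 1000 or more genes the rod-like ratio for rd10-vehicle over WT was -0.44 (-1.09 to 0.12). When only cells with at most 10% mitochondrial UMIs were kept, the cone-like ratio was -0.47 for rd10-vehicle over WT (-0.82 to -0.13) and 0.53 for rd10-TMB over rd10-vehicle (0.19 to 0.88). Whether the glial and photoreceptor ratios differ was not tested, since there was 1 library per group.

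Slc2a1 in cone-like cells was 44.9, 29.6 and 35.0 CPM in WT, rd10-vehicle and rd10-TMB, from 64, 76 and 76 UMIs. It fell for rd10-vehicle over WT (-0.60, interval -1.10 to -0.10), by an amount just past 1.5-fold, and was the only call among the 3 transporter genes that entered there, against 6.48% of all genes. For rd10-TMB over WT 6.44% of all genes were called in cone-like cells and for rd10-TMB over rd10-vehicle 2.88%, with none of the transporter genes. The cone call was lost under several alternatives, mostly with a ratio of about the same size: -0.52 with each cell weighed the same, -0.54 with size factors from the median of ratios, -0.57 with totals without mitochondrial and ribosomal genes, -0.55 without the deepest 5% of cells and -0.61 (-1.21 to 0.09) with Xist-bearing WT cells. After thinning the ratio was -0.13 (-1.38 to 1.39).

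Slc16a3 in rod-like cells fell in rd10-vehicle, from 41.2 CPM in WT (32.3 to 51.7) to 17.4 CPM (9.75 to 28.7), a log2 ratio of -1.17 (-2.15 to -0.43) that rests on 15 UMIs in rd10-vehicle. The call was lost with cells of 1000 or more genes (-0.76, interval -2.72 to 0.48) and with Xist-bearing WT cells (-1.09, interval -2.15 to -0.18), where too few UMIs were left. In rd10-TMB it stood at 29.3 CPM (20.6 to 40.4), between the other libraries, with intervals that held 0 against either (-0.47 against WT and 0.69 against rd10-vehicle). With each cell weighed the same, the ratio of rd10-TMB over rd10-vehicle was 0.89. That is a call only with the summed-count interval moved to this ratio (0.04 to 1.91), which leaves out the spread between cells. Amacrine markers in rod-like cells summed to 261, 44.2 and 47.5 CPM, and their part in the Slc16a3 values was not tested. This was 1 of 4 genes that entered in rod-like cells, where 10.6% of all genes were called for rd10-vehicle over WT, 9.14% for rd10-TMB over WT and 4.1% for rd10-TMB over rd10-vehicle.

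The same gene fell in both bipolar clusters of the main set for rd10-vehicle over WT. In rod bipolar-like cells the log2 ratio was -0.64 (-1.10 to -0.18), from 45.3 to 29.1 CPM, and it was the only transporter gene called of 4, against 4.81% of all genes. In ON cone bipolar-like cells it was -0.86 (-1.54 to -0.21), from 44.7 to 24.5 CPM, 1 of 5 against 8.2%. That call was lost with each cell weighed the same (-0.45, interval -1.13 to 0.20), with Xist-bearing WT cells (-0.48, interval -1.30 to 0.47) and after thinning (-0.24, interval -1.49 to 1.08). In rd10-TMB the ON cone bipolar-like level was 43.7 CPM, close to WT, and Slc16a3 rose there for rd10-TMB over rd10-vehicle (0.82, interval 0.20 to 1.49), 1 of 5 against 2.9%. That call, the only one of a transporter gene for this comparison, was lost after thinning (1.08, interval 0.07 to 2.23, on too few UMIs to enter), with a 2-fold limit and with at least 200 UMIs. In rod bipolar-like cells the same comparison gave 0.26 (-0.19 to 0.72), where 2.75% of all genes were called. The low library was thus rd10-vehicle in rod-like, rod bipolar-like and ON cone bipolar-like cells, on 15, 76 and 35 UMIs. After thinning, the rod bipolar-like ratio was -0.98 (-1.94 to -0.05), on too few UMIs to enter. Gnat1, the rod transducin gene, was seen in 9.98, 4.29 and 6.78% of thinned rod bipolar-like cells and in 20.6, 5.15 and 12.7% of ON cone bipolar-like cells, in both in the same order of libraries as the Slc16a3 level. Amacrine markers summed to 251, 52.5 and 33.0 CPM in ON cone bipolar-like cells. The part of RNA from other cell types in these values was not tested.

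Slc16a7 entered only in ON cone bipolar-like cells, with 14.9, 25.2 and 29.1 CPM from 16, 36 and 38 UMIs. It rose for rd10-TMB over WT (0.92, interval 0.09 to 1.91), where 7.6% of all genes were called. That call was lost when each cell weighed the same, after thinning, with Xist-bearing WT cells, without the deepest 5% of cells, and with cells of 1000 or more genes or at most 10% mitochondrial UMIs. Its ratio for rd10-vehicle over WT was 0.71 (-0.13 to 1.70). For rd10-TMB over WT in rod bipolar-like cells, 4.21% of all genes and none of the transporter genes were called. Bsg was higher in the rd10 libraries in rod-like, rod bipolar-like and ON cone bipolar-like cells, with log2 ratios over WT of 0.11 to 0.25 and intervals that left out 0, but below 1.5-fold. For rd10-vehicle over WT the rod-like ratio turned to -0.20 (-0.52 to 0.10) with cells of 1000 or more genes, and the ON cone bipolar-like one was 0.11 (-0.04 to 0.26) with Xist-bearing WT cells.

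Some clusters outside the main set held very different numbers of cells in WT and rd10, among them the 3 that follow. The share of all genes that differ as much was not computed for these clusters. The ratios below therefore cannot be told apart from a shift of many genes. Other gene and cluster pairs outside the main set are not listed. Astrocyte-like Slc2a1 was 373 CPM from 20 cells of WT, 199 CPM from 88 of rd10-vehicle and 227 CPM from 33 of rd10-TMB, a log2 ratio of -0.91 (-1.22 to -0.59) and -0.72 (-1.09 to -0.35) over WT. Slc16a1 in the same cells had another pattern, with 61.7 CPM in WT from 20 UMIs, 69.6 CPM in rd10-vehicle from 98 and 28.4 CPM in rd10-TMB from 16. Slc2a3 in cluster 10 was 121, 60.7 and 68.7 CPM, which over WT is -0.94 (-1.71 to -0.34) and -0.79 (-1.38 to -0.29). Bsg in the amacrine-like cluster 9 was 484, 738 and 728 CPM, or 0.62 (0.33 to 0.89) and 0.60 (0.28 to 0.89) over WT.

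At the level of whole libraries, Slc2a3 was at 50.8, 17.4 and 21.3 CPM in WT, rd10-vehicle and rd10-TMB, Slc16a3 at 25.9, 7.97 and 12.1 CPM, and Slc16a7 at 15.6, 6.73 and 8.05 CPM. The amacrine-like clusters 5 and 9 held 461 and 295 cells in WT, 43 and 62 in rd10-vehicle and 35 and 48 in rd10-TMB of 4478, 5952 and 4812 cells in all, and Müller glia-like cells were 530, 2492 and 1748. The part of these cell numbers in the whole-library levels was not tested. Cluster 5 alone supplied 21.2% of the Slc2a3 UMIs of WT and 2.80% of those of rd10-vehicle. Slc16a1, by contrast, was 127, 124 and 120.1 CPM in the whole libraries, although it fell within Müller glia-like cells, which supplied 32.7% of its UMIs in WT and 66.1% in rd10-vehicle.

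Other genes of glucose and lactate handling were read from 4 lists. Of 12 other glucose carriers, 10 were in the matrix and 3 entered in any main cluster: Slc50a1, Slc2a8 and Slc2a12. Slc50a1, a sugar carrier of the SWEET family, was highest in the vascular cluster, with 127, 172 and 167 CPM. Of the carriers tested, only Slc2a12 was called, lower in Müller glia-like cells of both rd10 libraries, from 6.93 CPM in WT to 3.47 and 3.10 CPM, on 23, 77 and 52 UMIs. Slc2a13, a proton-coupled inositol carrier, reached 18.6 CPM in rod-like cells but did not enter. The list gave 1 call of 8 pairs for rd10-vehicle over WT, against 10.5% of all genes and clusters, and 1 of 8 for rd10-TMB over WT, against 9.39%.

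Of 15 other monocarboxylate and pyruvate carriers, 13 were in the matrix and 9 entered, with 1 of 23 pairs called for rd10-vehicle over WT, against 10.5% of all genes and clusters, and 1 of 24 for rd10-TMB over WT, against 9.39%. Mpc1 and Mpc2, the subunits of the mitochondrial pyruvate carrier, were broadly present, with 164 to 225 and 312 to 325 CPM in Müller glia-like cells. Slc16a6 was a photoreceptor gene, with 220, 184 and 184 CPM in rod-like cells and 119, 81.5 and 93.9 CPM in cone-like cells. Slc16a9 rose in Müller glia-like cells for rd10-vehicle over WT, from 7.83 to 14.6 CPM, and Slc16a12 rose in the vascular cluster for rd10-TMB over WT, from 22.2 to 47.7 CPM.

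Among the 6 partners and regulators, Nxnl1, which encodes the rod-derived cone viability factor, had 412, 328 and 353 CPM in rod-like and 122, 128 and 81.0 CPM in cone-like cells. It fell in cone-like cells for rd10-TMB over rd10-vehicle (-0.66, interval -0.93 to -0.39) and over WT (-0.59, interval -0.90 to -0.28), and was the only gene of this list called for rd10-TMB over rd10-vehicle (1 of 19 pairs, against 3.15% of all genes and clusters). Txnip, an arrestin-like protein that takes GLUT1 off the cell surface, was 265, 176 and 166 CPM in the vascular cluster and fell over WT in both rd10 libraries (-0.59 and -0.67). Of 19 pairs of this list, 1 was called for rd10-vehicle over WT and 2 for rd10-TMB over WT, against 10.5 and 9.39%. Hif1a was 557 to 684 CPM in rod-like and 674 to 687 CPM in ON cone bipolar-like cells, and was not called in any comparison.

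The last list held 11 enzymes at the first and last steps of glucose and lactate use, of which 10 entered, with 5 of 37 pairs called for rd10-vehicle over WT, 3 of 38 for rd10-TMB over WT and 1 of 38 for rd10-TMB over rd10-vehicle, against 10.5, 9.39 and 3.15% of all genes and clusters. Ldha, a lactate dehydrogenase subunit, had 1454, 1221 and 1268 CPM in rod-like cells and 227, 227 and 228 CPM in Müller glia-like cells. Its partner subunit Ldhb was the reverse, with 67.8, 56.9 and 56.2 CPM in rod-like and 394, 415 and 422 CPM in Müller glia-like cells. Hk2, a hexokinase, had 1165, 1215 and 1088 CPM in rod-like and 830.2, 687 and 635 CPM in cone-like cells. Hk1, the other hexokinase, rose in Müller glia-like cells for rd10-vehicle over WT (48.2 to 74.3 CPM) and fell in the vascular cluster (97.4 to 63.2 CPM). Pdk1, a kinase that holds back pyruvate dehydrogenase, fell in rod-like cells from 30.6 CPM in WT to 16.3 and 8.70 CPM, on 55, 14 and 11 UMIs. Ldhb fell in ON cone bipolar-like cells for rd10-vehicle over WT (76.4 to 35.0 CPM), and Hk2 rose there for rd10-TMB over rd10-vehicle (58.8 to 92.7 CPM). Pygm, the muscle glycogen phosphorylase, fell in the vascular cluster in both rd10 libraries (32.9 to 16.6 and 18.3 CPM) and rose in rod-like cells for rd10-TMB over WT (11.7 to 22.9 CPM).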

How the data were processed

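Per the labels and the study's methods, the authors aligned 10x v3 reads to mm10 with Cell Ranger 6.0.1, took out doublets, and required 500 genes per cell (Seurat 3.2.2). Values were deposited as the natural log of 1 plus a gene's UMIs scaled to 10000 a cell. The authors' cell table holds clusters and UMI count totals. Each of 32620606 entries was turned back into a count, 100% whole within 0.001 UMI, with sums equal to the deposited total in 15242 of 15242 cells. Counts were summed per cluster and library, with exact Poisson, binomial and conditional intervals at 95% and a pseudocount of 1 UMI in log2 ratios (Python 3.11.15, scipy 1.17.1). They cover counting error only. Where each cell weighed the same, the interval of the summed counts was moved to the new ratio. Such an interval does not measure the error of a mean over cells. A count of 0 was set against 3 counts. Clusters were named from 168 of 170 markers, counted at 2-fold and 20 CPM; the names may not match the study's. Likeness used log2(CPM + 10).

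The transporter genes, lists and alternatives were chosen with earlier results of these data known. Named were the 6 genes, listed genes that were called or among the 3 highest of their list, and the 5 closest genes to each, of which 1 is not reported here. WT mixes both sexes and rd10 is female, so sex and genotype cannot be told apart, except in an alternative limited to WT cells with Xist but without Y-linked UMIs (Xist-bearing WT cells).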

Additional observations from a re-analysis of the deposited data

How the results depend on the processing

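Each count of called pairs was recomputed under the alternatives. For rd10-vehicle over WT, 5 pairs became 3 with the mean over cells, 2 when thinned to 1000 UMIs, 3 with only WT cells carrying Xist but no Y-linked UMIs, 1 with a 2-fold limit and 1 with at least 200 UMIs. For rd10-TMB over WT, 2 became 1 with the mean over cells, with cells of 1000 or more genes, with a mitochondrial share of 10% or less, without the 5% of cells with the most UMIs and with at least 200 UMIs, and 0 with a 2-fold limit; when thinned it stayed 2, with Slc16a7 in ON cone bipolar-like cells lost and Slc2a1 in rod-like cells gained (0.65 against 0.25). For rd10-TMB over rd10-vehicle, 1 became 2 with the mean over cells and 0 when thinned, with a 2-fold limit and with at least 200 UMIs. The cause was not tested. Slc16a1 in Müller glia-like cells was lost with a 2-fold limit in both comparisons with WT, and without Lcn2 cells for rd10-vehicle over WT only, where Slc2a3 was gained. In the vascular cluster Slc16a1 was gained for rd10-vehicle over WT with a mitochondrial share of 10% or less, with Xist-bearing WT cells and in the cells richer in endothelial than pericyte markers, and for rd10-TMB over WT with Xist-bearing WT cells (-0.59). The splits by Lcn2 and by endothelial markers were chosen after seeing the data. In Müller glia-like cells the log2 ratio of Slc16a1 for rd10-vehicle over WT ran from -0.86 to -0.56, and that of Slc2a1 for rd10-TMB over rd10-vehicle ran from 0.20 to 0.28. Of 648 recomputed ratios, 570 stayed inside the counting interval, 78 did not, and 0 called ratios reversed. All 6 genes kept their highest cluster in 7 alternatives. No paired analysis was possible because each group has 1 library.

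Depth limits Slc2a3, Slc16a3 and Slc16a7, which held under 100 UMIs in most clusters.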
